A study of Mus musculus with 59 samples.

Results

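Cholesterol synthesis and its feedback control were followed through 7 genes, Hmgcs1, Idi1, Sqle, Dhcr7, Insig1, Insig2 and Srebf2, in liver, bone marrow and spleen of B6C3F1 mice that received the muscle relaxant baclofen, an agonist of the GABA-B receptor, or its vehicle. The genes were taken as every probe set to which the array annotation gives exactly 1 symbol, with that symbol among the 7. This gave 15 of the 45101 probe sets: 5 for Hmgcs1, 3 for Insig2, 2 each for Idi1 and Srebf2, and 1 each for Sqle, Dhcr7 and Insig1. In RefSeq's GRCm38.p6 the genes lie at chr13:119690351-119708260 (Hmgcs1), chr13:8885606-8892396 (Idi1), chr15:59315092-59331193 (Sqle), chr7:143823167-143848410 (Dhcr7), chr5:28071412-28078662 (Insig1), chr1:121304353-121332662 (Insig2) and chr15:82147269-82205379 (Srebf2). The set was named for synthesis and uptake, but none of the 7 encodes an uptake receptor, so uptake is described here from other genes of the pathway.

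The series holds 59 whole-genome mouse arrays. B6C3F1 mice, of an age and a baclofen dose the labels do not give, received baclofen or 0.5% methylcellulose once or daily for 5 days, and tissues were taken 2 h after the last dose. Liver had 4 baclofen and 3 vehicle arrays at 1 day and 8 baclofen and 4 vehicle arrays at 5 days, while bone marrow of the right humerus and spleen each had 4 baclofen and 4 vehicle arrays at 1 day and 8 baclofen and 4 vehicle arrays at 5 days. The labels number the replicates without saying that each is a separate animal, so p-values measure only the spread between arrays, which may be technical.

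Hepatocyte markers (11 of 12 with a probe set) averaged 14.38 to 14.56 on the log2 scale in the 19 livers and 5.12 to 5.64 in the 20 marrows. In liver at 1 day they averaged 14.51 to 14.55 with baclofen, against 14.38 to 14.45 with vehicle. At 5 days they averaged 14.52 to 14.56 with baclofen, against 14.38 to 14.48 with vehicle, so the treatments did not overlap at either time. In spleen they lay between 4.92 and 9.73, with 9.45 in baclofen 5 day replicate 5 and 9.73 and 7.09 in vehicle 5 day replicates 3 and 1, so these libraries held transcripts of another tissue. The vehicle 5 day spleens had a lowest value of 5.25 and a median of 6.57, against 4.92 to 5.02 in vehicle 1 day spleens. Smaller amounts in the remaining vehicle 5 day spleens are therefore possible. In bone marrow, skeletal muscle markers reached 9.92 in baclofen 1 day replicate 3. Labels disagree for 5 of the 7 livers taken after 1 day, where title and treatment field give one treatment and the source field the other, and titles were followed. All 3 tissues are bulk samples, in which fewer cells of a type and less RNA per cell cannot be told apart.

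Cells make cholesterol from acetyl-CoA through the mevalonate pathway. Hmgcs1 encodes the cytosolic HMG-CoA synthase near its start, Idi1 the isomerase that interconverts the isoprenoid building blocks, Sqle the squalene epoxidase of the sterol branch, and Dhcr7 the reductase of a last step to cholesterol. Srebf2 encodes SREBP-2, the membrane-bound transcription factor that activates these enzyme genes once it has been carried to the Golgi and cleaved. The proteins of Insig1 and Insig2 hold the SREBP escort in the endoplasmic reticulum when sterols are plentiful, which keeps SREBP-2 inactive. Insig1 is itself a target of SREBPs, whereas a liver transcript of Insig2 is known in mice to be lowered by insulin.

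All 7 genes were brighter than the filter in every tissue. By the probe set that stood for it in liver, Hmgcs1 ranged over all arrays from 1282 to 6926 in liver (median 5073), from 543 to 1067 in bone marrow (median 657) and from 578 to 1125 in spleen (median 806), in deposited intensity units. Idi1, Insig1, Insig2, Sqle and Dhcr7 were likewise higher in every liver than in any marrow or spleen array. Their medians were 4094, 462.5 and 385.5 for Idi1 in liver, bone marrow and spleen, and 2770, 240.5 and 227.5 for Insig2. Srebf2 alone had its lowest median in liver, at 413 (303 to 531), against 558 (519 to 644) in bone marrow and 505.5 (399 to 586) in spleen, with ranges that overlapped. The tissues appear to have been normalized apart, with array medians of 34.7 to 36.8 in liver and 72.6 to 77.6 in the others, so these levels are set side by side without a test.

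The start regions of Hmgcs1 and Idi1, whose transcripts varied together in liver, and of Insig2, whose transcript did not, are shown for the motifs that sterol-responsive promoters often carry. Each run holds the 250 bases before an annotated start, 5′ to 3′ (RefSeq, GRCm38.p6). The windows lie at chr13:119690101-119690350 on the plus strand for Hmgcs1, at chr13:8885356-8885605 on the plus strand for Idi1, and at chr1:121332590-121332839 on the minus strand for Insig2, the most upstream of its 3 windows. Capitals mark matches on either strand to TCACNCCAC, a core of the sterol regulatory element that SREBPs bind, to CCAAT, which the factor NF-Y reads, and to GGGCGG, the GC box that Sp1 reads.
Hmgcs1: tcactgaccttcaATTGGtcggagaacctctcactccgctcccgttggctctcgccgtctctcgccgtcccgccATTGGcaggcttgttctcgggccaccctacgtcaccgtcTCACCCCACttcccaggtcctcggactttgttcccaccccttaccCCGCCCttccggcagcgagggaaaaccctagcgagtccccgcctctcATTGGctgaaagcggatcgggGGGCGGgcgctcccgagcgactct
Idi1: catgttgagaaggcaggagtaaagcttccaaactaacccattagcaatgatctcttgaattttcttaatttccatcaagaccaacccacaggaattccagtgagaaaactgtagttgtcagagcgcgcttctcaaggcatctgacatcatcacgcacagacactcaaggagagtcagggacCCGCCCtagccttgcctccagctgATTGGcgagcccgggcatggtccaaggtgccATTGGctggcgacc
Insig2: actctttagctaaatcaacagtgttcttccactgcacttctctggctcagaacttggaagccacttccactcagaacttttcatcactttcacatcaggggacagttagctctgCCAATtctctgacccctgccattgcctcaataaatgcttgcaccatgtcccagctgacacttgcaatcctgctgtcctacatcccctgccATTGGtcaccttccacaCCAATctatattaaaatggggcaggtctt
The Hmgcs1 window held the 1 match to the sterol element core, 137 to 129 bases before the start, along with 3 CCAAT and 2 GC boxes, while Idi1 held 2 CCAAT boxes and 1 GC box and Insig2 held 3 CCAAT boxes. No matches overlap in these windows. The other Insig2 windows held 0 CCAAT boxes and 1 GC box each, so the letters depend on the start chosen. Dhcr7, which also varied with Hmgcs1 in liver, is not shown. Its windows ranged from 0 matches of any kind to 2 CCAAT and 3 GC boxes. The core was found in 1.05% of all 32851 windows of this length, CCAAT in 33.8% and GGGCGG in 32.7%, and 1 of the 10 windows that the table holds for 6 of the 7 genes had it. Matches are descriptions of letters, not of sites in use.

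Baclofen and vehicle differed past the threshold in 1 of 42 comparisons of a gene, tissue and time, the lower Hmgcs1 level in bone marrow after 5 doses. A difference was called when limma's p, adjusted over all 10916 genes tested in the tissue, was under 0.05. Of the 42 differences, 27 were negative and 15 positive, and 7 had an unadjusted p under 0.05. Hmgcs1, Idi1 and Sqle were below vehicle on average in 6 of 6 comparisons and Insig1 was above it in 6 of 6, with most of these differences inside the spread between arrays. Each of these 4 genes turned sign in at least 1 tissue when an array was left out or a setting was changed, so the counts of 6 hold for the fit reported. The labels do not say whether the 3 tissues came from the same mice, so the 6 comparisons may not be separate evidence.

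**Figure D1:**
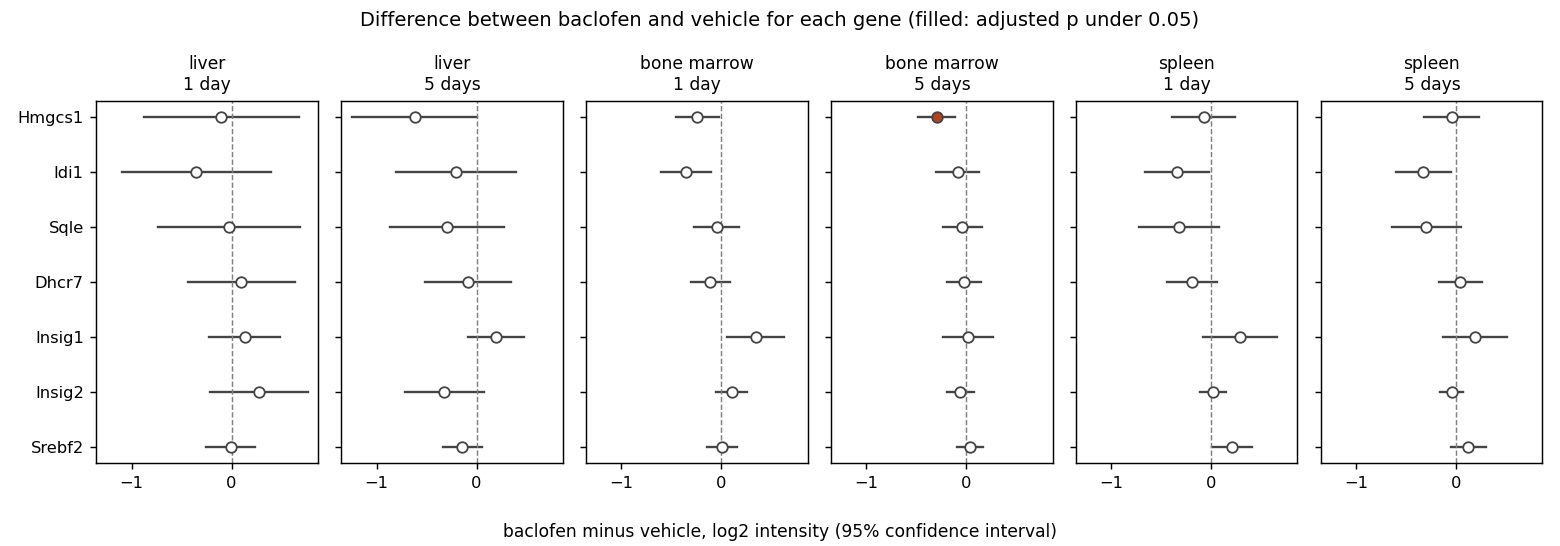
Difference between baclofen and vehicle on the log2 scale (horizontal axis) for each of the 7 genes (rows) in 6 panels of tissue and time, with bars for the 95% confidence interval of the limma fit and a filled point where the adjusted p was under 0.05. Only Hmgcs1 in bone marrow at 5 days is filled, at -0.29, and the intervals of Hmgcs1, Sqle, Idi1, Insig2 and Dhcr7 are widest in liver.

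Read against all genes, the 7 did not stand out by number of calls. Counts in this paragraph use the probe set that represents each gene. In liver at 1 day 0 of 7 were called, where 2.67% of the 10916 genes tested were (limma), and 0 of the 7 had an unadjusted p under 0.05, against 12.5% of all genes. In the fit of all probe sets apart, Insig2 had an unadjusted limma p of 0.00322 there by 1417981_at, 0.00324 by 1417980_a_at and 0.261 by 1417982_at. With the mean of probe sets the unadjusted limma p was 0.0161 for Insig2 in liver at 1 day and 0.0118 for Hmgcs1 in liver at 5 days. In liver at 5 days 0 of 7 were called, against 10.6%, and 0 had an unadjusted p under 0.05, against 26.7%. In bone marrow 0 of 7 were called at 1 day, against 7.36%, and 1 of 7 at 5 days, against 10.1%. There 3 of 7 had an unadjusted p under 0.05 at 1 day, against 24.1%, and 1 of 7 at 5 days, against 26.4%. In spleen 0 of 7 were called at 1 day, against 15.5%, and 0 of 7 at 5 days, against 4.43%. There 2 of 7 had an unadjusted p under 0.05 at 1 day, against 32% of all genes, and 1 of 7 at 5 days, against 25.9%. The median log2 difference of the 7 was -0.01 in liver at 1 day and -0.21 at 5 days, beside -0.01 and -0.02 over all genes tested. It was -0.04 at both times in bone marrow, beside 0.00, and -0.07 and -0.04 in spleen, beside -0.03 and 0.00. Array weights, which give deviating arrays less say, called 3 of the 7 in bone marrow at 1 day, where they called 22.1% of all genes, 3 in bone marrow at 5 days, against 40.3%, and 3 in spleen at 1 day, against 33.4%. Groups without overlap, a measure used here for single genes, were found for 12.5% of all genes in liver at 1 day, 5.49% in liver at 5 days, 13.3% in bone marrow at 1 day and 17.2% in spleen at 1 day.

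Hmgcs1 in liver after 1 dose was 4472, 4401, 6926 and 5273 in baclofen livers, against 6603, 5026 and 5212 in vehicle livers, and the groups overlapped. After 5 doses it ranged in the 8 baclofen livers from 1282 to 5760 with a median of 4557, against 6631, 6605, 6912 and 3957 in the 4 vehicle livers. All but 1 vehicle liver lay above every baclofen liver, and the exception lay inside the baclofen range. The log2 difference was -0.11 ± 0.37 (SE) at 1 day (adjusted p = 0.965) and -0.62 ± 0.30 at 5 days (adjusted p = 0.19), with a 95% interval of -1.25 to 0.00 at 5 days. Without baclofen replicate 8, the lowest liver, the difference at 5 days was -0.40 (adjusted p = 0.185). A further Hmgcs1 probe set, 1441536_at, was too dim to be tested in any tissue and read 7.83 to 10.4 in the 8 baclofen livers at 5 days, against 32.2, 24.1, 49.4 and 9.84 in the vehicle livers.

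In bone marrow Hmgcs1 was represented by 1433445_x_at, a probe set of a type that can bind related transcripts. After 5 doses it read 655, 644, 669, 765, 649, 657, 656 and 638 in baclofen marrow, against 1083, 757, 735 and 732 in vehicle marrow. A single baclofen array, at 765, lay inside the vehicle range. Hmgcs1 fell in baclofen marrow (log2 difference -0.29 ± 0.09, 95% interval -0.48 to -0.11, adjusted p = 0.0416). The other 3 bright probe sets of the gene had differences of -0.21 to -0.30, and in a fit of all probe sets apart 1433446_at was called too (adjusted p = 0.0388) while 1433443_a_at and 1433444_at were not (adjusted p = 0.248 and 0.0573). The call rested on vehicle replicate 1: without that array the difference was -0.16 (adjusted p = 0.207), and the call was also lost without any 1 of 8 other marrow arrays. Erythroid markers (6 of 8 with a probe set) averaged 11.09 to 11.42 in the 8 baclofen marrows, against 10.69 to 11.07 in the 4 vehicle marrows, and macrophage markers (7 of 7) averaged 9.25 to 9.57, against 8.90 to 9.13. Mature neutrophil markers averaged 13.49 to 13.79 in the baclofen marrows, against 13.73 to 13.85 in the vehicle marrows, with overlap. The part of these cells in the Hmgcs1 difference was not tested.

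After 1 dose Hmgcs1 read 605, 664, 700 and 615 in baclofen marrow, against 829, 769, 659 and 796 in vehicle marrow, with 1 vehicle array inside the baclofen range. The log2 difference of -0.24 ± 0.10 did not pass (adjusted p = 0.159). In spleen Hmgcs1 differed by -0.07 ± 0.15 at 1 day (adjusted p = 0.76) and by -0.04 ± 0.13 at 5 days (adjusted p = 0.861). The spleen value at 5 days turned to 0.22 without the 3 libraries that held transcripts of another tissue (adjusted p = 0.39). Without the same libraries the other differences in spleen at 5 days were -0.12 for Idi1, -0.11 for Sqle, 0.23 for Dhcr7, 0.41 for Insig1, 0.04 for Insig2 and 0.20 for Srebf2, and none passed. These values rest on vehicle replicates 2 and 4 alone for the vehicle side. Replicate 2 was the lowest vehicle spleen of that time for 6 of the 7 genes.

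Idi1 was lower in baclofen marrow after 1 dose without overlap between the groups, at 396, 366, 386 and 439, against 516, 498, 464 and 543 in vehicle marrow. The log2 difference was -0.35 ± 0.12, with a 95% interval of -0.60 to -0.10, and did not pass (adjusted p = 0.0773). Without vehicle 5 day replicate 1, an array that enters this comparison only through the shared estimate of spread, the adjusted p was 0.0189. After 5 doses the marrow difference was -0.08 ± 0.10 (adjusted p = 0.66), and it was 0.07 without that same array.

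In spleen Idi1 read 321, 331, 382 and 292 after 1 dose of baclofen, against 441, 425, 378 and 432 with vehicle, and 1 array of each group lay past an array of the other. The log2 difference was -0.34 ± 0.15 at 1 day (adjusted p = 0.128). The 8 baclofen spleens at 5 days ranged from 283 to 442 with a median of 371, against 660, 364, 427 and 416 in vehicle spleens (log2 difference -0.33 ± 0.13, adjusted p = 0.133). Without vehicle replicate 1, the array at 660, the difference at 5 days was -0.15 (adjusted p = 0.431). That array is among the libraries that held transcripts of another tissue. The second Idi1 probe set, 1423804_a_at, read 135, 127, 158 and 136 in baclofen spleens at 1 day, against 201, 208, 194 and 172 in vehicle spleens, with no overlap. In the fit of all probe sets apart its difference there was -0.48 ± 0.16 and passed (adjusted p = 0.0447). In liver Idi1 differed by -0.36 ± 0.36 at 1 day (adjusted p = 0.808) and by -0.21 ± 0.29 at 5 days (adjusted p = 0.684), and the value at 5 days was 0.03 without baclofen replicate 8.

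Sqle was lower on average in baclofen spleens, at 181, 192, 225 and 186 after 1 dose, against 262, 278, 176 and 276 in vehicle spleens. All baclofen spleens lay under 3 of the 4 vehicle spleens and above the other one. The log2 difference was -0.32 ± 0.19 at 1 day (adjusted p = 0.249) and -0.30 ± 0.16 at 5 days (adjusted p = 0.249). Without vehicle 5 day replicate 1, at 394 and among the libraries that held transcripts of another tissue, the spleen difference at 5 days was -0.10 (adjusted p = 0.722). In bone marrow Sqle differed by -0.04 at both times, with 95% intervals of -0.27 to 0.18 at 1 day and -0.23 to 0.16 at 5 days. In liver the differences were -0.03 ± 0.34 at 1 day and -0.30 ± 0.27 at 5 days (adjusted p = 0.988 and 0.52), and the value at 5 days was -0.09 without baclofen replicate 8 (adjusted p = 0.779).

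Dhcr7 had differences between -0.19 and 0.09 in the 6 comparisons, with the lowest adjusted p at 0.277. The -0.19 ± 0.12 stood in spleen at 1 day, where baclofen spleens read 218, 229, 244 and 207, against 234, 254, 273 and 264 in vehicle spleens. Only 1 baclofen spleen lay above the lowest vehicle spleen.

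Insig1, whose protein restrains SREBP-2, was higher on average with baclofen in each tissue at each time, though by the labels of the source field its liver difference at 1 day was -0.12 and not 0.13. After 1 dose in bone marrow it read 163, 195, 174 and 202, against 150, 139, 124 and 165 with vehicle, and a single pair of arrays overlapped. The log2 difference was 0.35 ± 0.14, with a 95% interval of 0.06 to 0.63 (adjusted p = 0.126). After 1 dose in spleen it read 212, 185, 208 and 187, against 134, 165, 181 and 171 with vehicle, with no overlap between the groups, and the difference of 0.29 ± 0.18 did not pass (adjusted p = 0.266). After 5 doses the differences were 0.19 ± 0.13 (liver), 0.02 ± 0.12 (bone marrow) and 0.19 ± 0.15 (spleen) (adjusted p = 0.39, 0.938 and 0.434). In all 3 tissues vehicle replicate 1 had the highest Insig1 level of its group at 5 days, at 1654 (liver), 241 (bone marrow) and 296 (spleen). Without it the difference at 5 days was 0.32 for livers (adjusted p = 0.145), 0.21 for marrow (adjusted p = 0.167) and 0.42 for spleens (adjusted p = 0.0606). Of these arrays, the spleen one is among the libraries that held transcripts of another tissue. With array weights the marrow difference was 0.22 and passed (adjusted p = 0.0196).

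**Figure D2:**
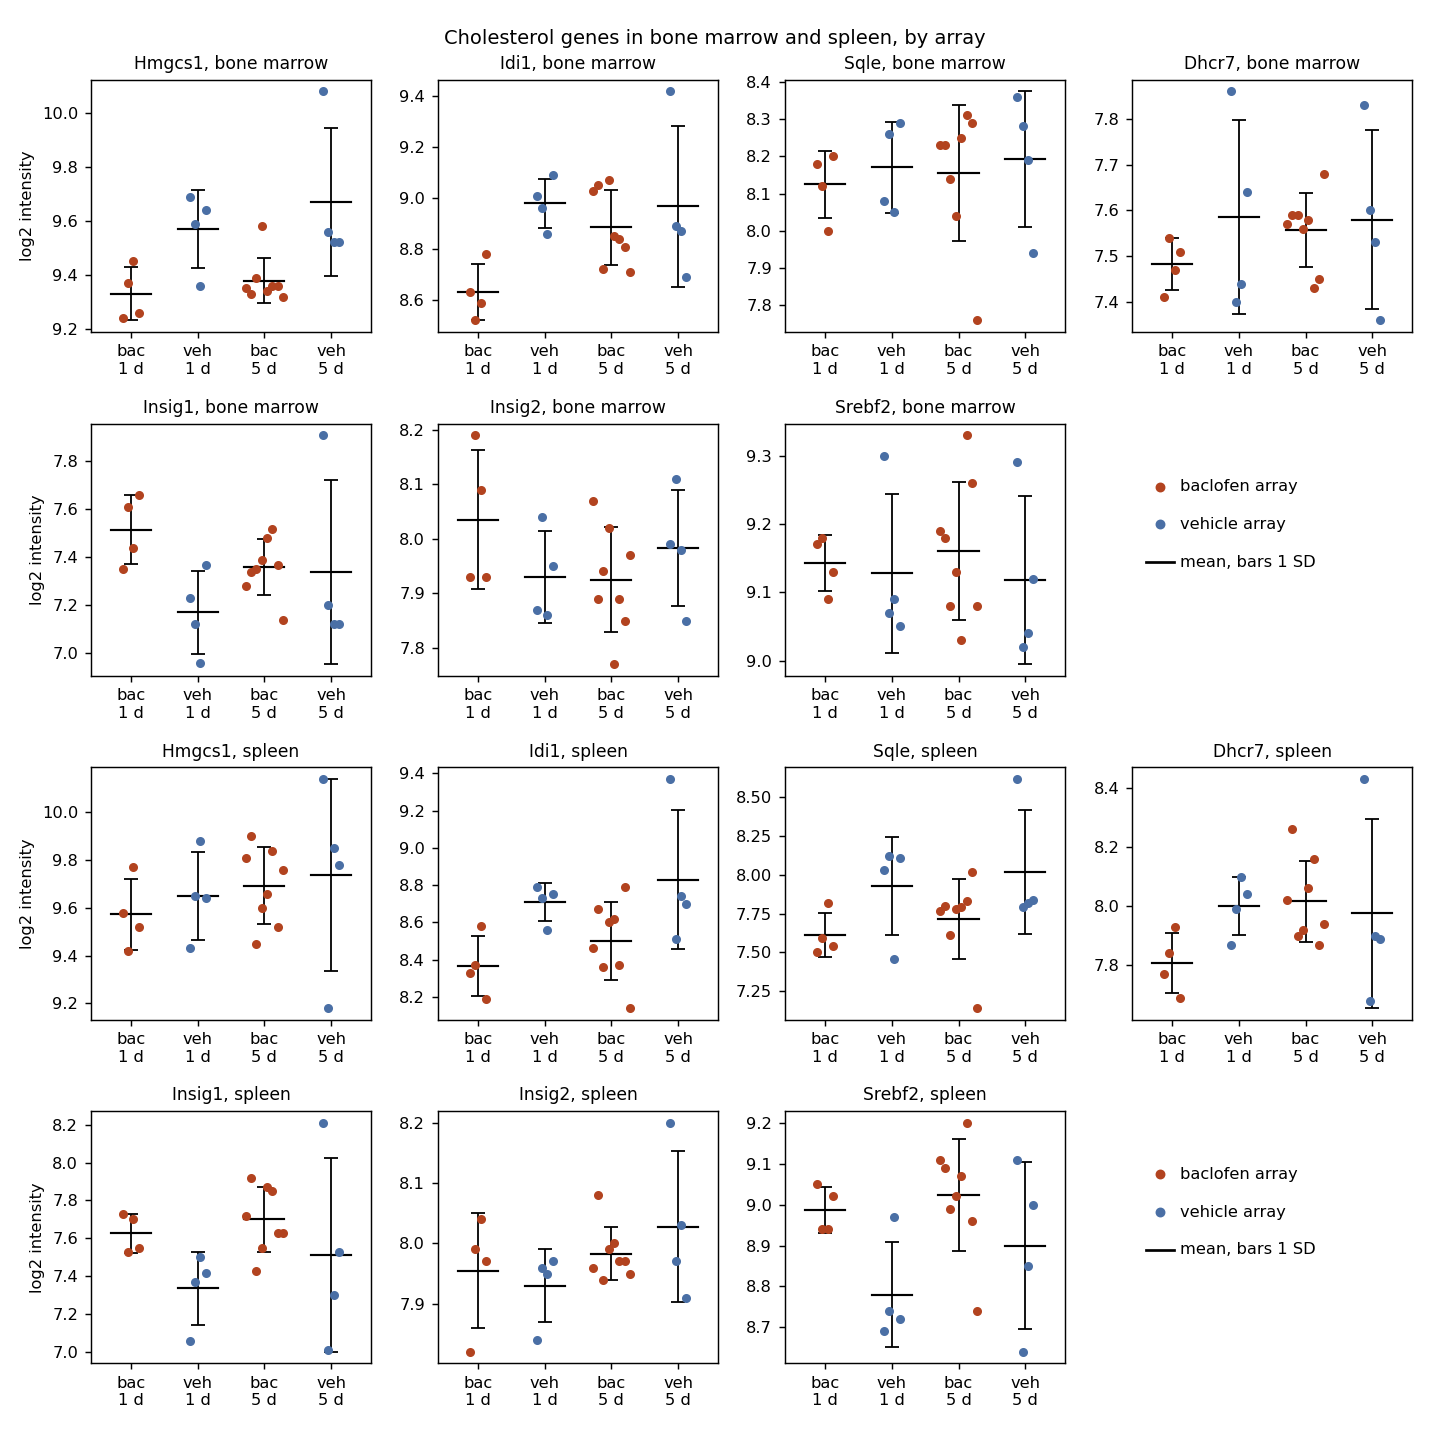
Log2 intensity of each gene (vertical axes, separate scale per panel) in every bone marrow and spleen array, with baclofen (bac) and vehicle (veh) groups at 1 and 5 days along the horizontal axis, bars for the mean and 1 SD, and replicates in number order from left to right in each group. Idi1 in bone marrow and Insig1 in spleen at 1 day show groups that do not overlap, and vehicle replicate 1 at 5 days stands at the top of its group for 6 of 7 genes in bone marrow and 7 of 7 in spleen. The spleen array of that number is among the libraries that held transcripts of another tissue.

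The Insig2 probe sets did not read alike in liver. After 1 dose 1417981_at read 3701, 2541, 2323 and 1966 in baclofen livers, against 1890, 1230 and 1583 in vehicle livers, and the groups did not overlap. The brightest probe set, 1417982_at, read 5907, 4546, 4141 and 3158, against 4531, 2770 and 3684, and its groups overlapped. In the fit of all probe sets apart the log2 difference was 0.73 ± 0.22 for 1417981_at (adjusted p = 0.0784), 0.73 ± 0.22 for 1417980_a_at (adjusted p = 0.0787) and 0.27 ± 0.23 for 1417982_at (adjusted p = 0.737). None of the 3 passed, and with the labels of the source field the difference of the brightest one was -0.05.

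**Figure D3:**
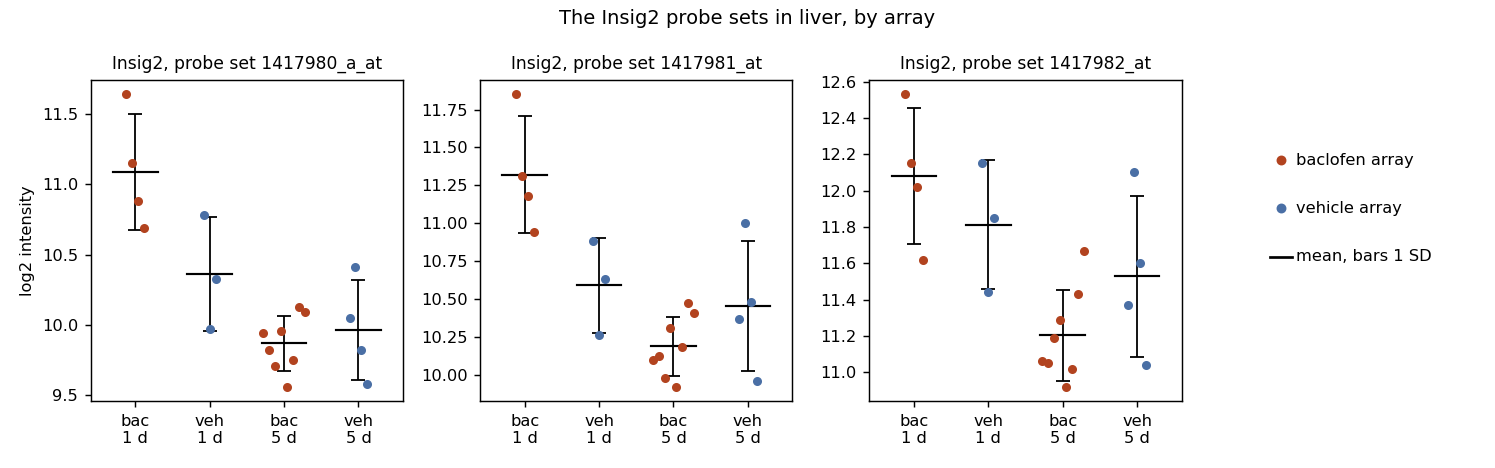
Log2 intensity (vertical axes, separate scales) of the 3 Insig2 probe sets in every liver array, with baclofen (bac) and vehicle (veh) groups at 1 and 5 days along the horizontal axis and bars for the mean and 1 SD. At 1 day the baclofen livers lie above all vehicle livers by 1417981_at and overlap them by 1417982_at.

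After 5 doses Insig2 by 1417982_at ranged from 1943 to 3266 with a median of 2236 in the 8 baclofen livers, against 2651, 4397, 3109 and 2112 in vehicle livers. The difference was then -0.33 ± 0.19 (adjusted p = 0.28). The change of the difference from 1 to 5 days was -0.60 ± 0.30 by this probe set (adjusted p = 0.538). In the fit of all probe sets apart it was -1.0 ± 0.28 for 1417981_at (adjusted p = 0.275) and -0.83 ± 0.28 for 1417980_a_at (adjusted p = 0.343), and with the mean of probe sets -0.81 ± 0.28 (adjusted p = 0.361), none of which passed. In bone marrow and spleen, where 1417981_at was the brightest, differences lay between -0.06 and 0.11. In spleen at 1 day 1417982_at differed by -0.30 ± 0.11 (adjusted p = 0.0776 in the fit of all probe sets apart), while 1417981_at and 1417980_a_at differed by 0.02 and 0.17.

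Srebf2 stayed within 0.21 of vehicle on the log2 scale in all 6 comparisons. Its widest difference was 0.21 ± 0.10 in spleen after 1 dose, at 530, 493, 489 and 519 in baclofen spleens, against 412, 428, 501 and 420 in vehicle spleens (adjusted p = 0.146). The baclofen spleens lay above 3 of the 4 vehicle spleens, and without the fourth, vehicle replicate 3, the difference was 0.27 (adjusted p = 0.0494). In liver the difference was -0.15 ± 0.09 at 5 days (adjusted p = 0.345).

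No difference between days passed the threshold for any of the 7. The baclofen difference in liver also did not differ past it from that in bone marrow or spleen. Bone marrow and spleen were not tested against each other. The change of the baclofen difference from 1 to 5 days had its lowest adjusted p by limma at 0.538 (liver), 0.942 (bone marrow) and 0.76 (spleen), where 0.0183% of all genes passed in liver and 0 passed elsewhere. By the probe sets that represent them, 0 of the 7 had an unadjusted p under 0.05 for that change, against 9.62% (liver), 5.12% (bone marrow) and 7.86% (spleen) of all genes, while 2 of the Insig2 probe sets in liver, 1417981_at and 1417980_a_at, had 0.00197 and 0.00777 as unadjusted limma p. Vehicle tissues at 5 days and at 1 day differed by -0.28 to 0.19 (liver), -0.01 to 0.17 (bone marrow) and -0.02 to 0.17 (spleen), with 0 of all genes called by limma (779, 510 and 378 genes at an unadjusted p under 0.05) and 0 of the 7 at an unadjusted p under 0.05. Between tissues, the baclofen difference of Insig2 at 1 day was 0.57 ± 0.23 higher in liver than in spleen (adjusted p = 0.13). At 5 days liver minus spleen was -0.27 ± 0.12 for Srebf2 (adjusted p = 0.12), the lowest of the 7 there, and -0.58 ± 0.29 for Hmgcs1 (adjusted p = 0.187). In these tests 0 of the 7 were called, where 2.27% and 7.8% of genes passed for liver minus bone marrow at 1 and 5 days, and 6.53% and 11.7% for liver minus spleen.

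The genes spread widely among livers of one group. The within-group SD of Hmgcs1 in liver was 0.54 on the log2 scale, above 98.8% of all genes tested, and that of Idi1 was 0.52, Sqle 0.49, Dhcr7 0.37, Insig2 0.34 and Insig1 0.24, where the median gene had 0.13. Srebf2, at 0.16, lay near that median. In bone marrow the SDs were 0.10 to 0.21 beside a median of 0.12, and in spleen 0.08 to 0.29 beside 0.14. Baclofen 5 day replicate 8 was the lowest liver of its group for 6 of the 7 genes and the highest for Insig2. It read 1282 for Hmgcs1, 1126 for Idi1 and 459 for Sqle, where the other 7 baclofen livers read at least 2794, 3512 and 1188. Without it the liver SD was 0.33 for Hmgcs1, 0.24 for Idi1 and 0.30 for Sqle, still above 95.9%, 90.1% and 94.6% of genes.

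**Figure D4:**
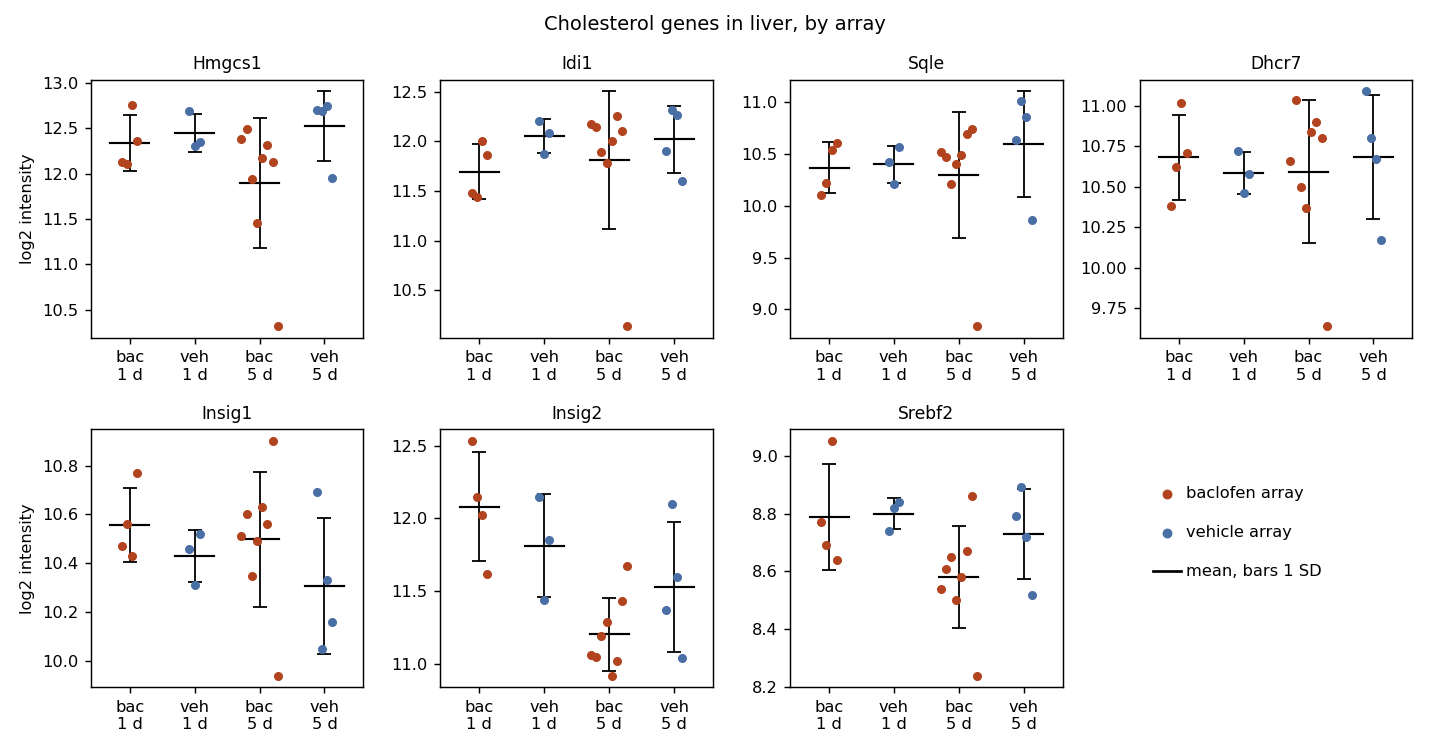
Log2 intensity of each gene (vertical axes, separate scale per panel) in every liver array, with baclofen (bac) and vehicle (veh) groups at 1 and 5 days along the horizontal axis, bars for the mean and 1 SD, and replicates in number order from left to right in each group. Replicate 8 of the baclofen group at 5 days stands lowest for all genes but Insig2.

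Within groups, livers with more Hmgcs1 also had more of the other enzyme transcripts. Each gene's log2 values were centred on their group means, and 18 relations with Hmgcs1 were tested over the 3 tissues by permutation with Benjamini-Hochberg adjustment. Over the 19 livers Pearson's r with Hmgcs1 was 0.95 for Idi1 (Spearman's rho 0.89, permutation p = 1e-05 and 2e-05, adjusted p = 6e-05 and 0.00018), where 1e-05 is the smallest p the permutations can give. For Dhcr7 r was 0.93 and rho 0.87 (permutation p = 1e-05 and 2e-05, adjusted p = 6e-05 and 0.00018). Leaving out the 2 livers farthest from the median of Hmgcs1 left r at 0.82 for both genes.

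For Sqle r was 0.88 and rho 0.64 (permutation p = 4e-05 and 0.00419, adjusted p = 0.0001 and 0.0126), and r was 0.55 without those 2 livers. For Srebf2 r was 0.72 and rho 0.56 (permutation p = 0.0006 and 0.0137, adjusted p = 0.00154 and 0.0309), and 0.41 without them. The relation of Insig1, with r of 0.62 and rho of 0.46 (permutation p = 0.00913 and 0.0473, adjusted p = 0.0149 and 0.0719), rested on those livers, since r was 0.18 without them. Insig2 had r of -0.25 and rho of -0.18 (permutation p = 0.301 and 0.457, adjusted p = 0.339 and 0.514). The arrays of a tissue share their normalization.

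**Figure D5:**
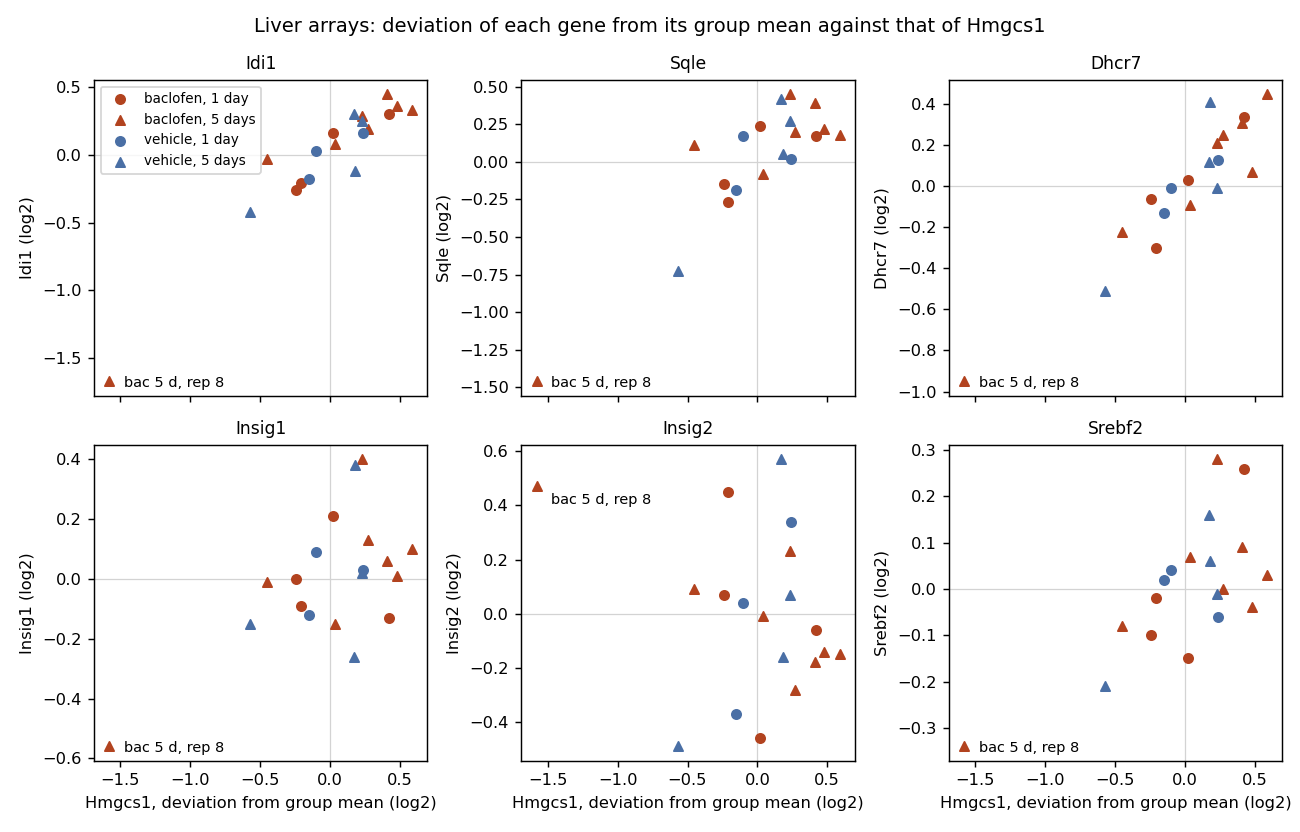
Deviation of each liver array from its group mean on the log2 scale for 6 genes (vertical axes) against the deviation of Hmgcs1 (horizontal axis), with colour for baclofen or vehicle and symbol for 1 or 5 days. Idi1 and Dhcr7 run along a line with Hmgcs1 (r = 0.95 and 0.93), Insig2 does not (r = -0.25), and baclofen 5 day replicate 8 lies at the far left.

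In spleen Hmgcs1 went with Dhcr7 (r = 0.84, rho = 0.80, permutation p = 2e-05 and 4e-05, adjusted p = 9e-05 and 0.00024) and Insig1 (r = 0.84, rho = 0.73, permutation p = 1e-05 and 0.00038, adjusted p = 6e-05 and 0.00171), with r at 0.72 and 0.69 without the 2 farthest arrays. It did not go detectably with Idi1 there (r = 0.40, rho = 0.14, permutation p = 0.0771 and 0.555, adjusted p = 0.0991 and 0.588) or with Sqle (r = 0.21, rho = 0.10, permutation p = 0.366 and 0.688, adjusted p = 0.366 and 0.688). Srebf2 had r of 0.65 and rho of 0.59 in spleen (permutation p = 0.00219 and 0.00723, adjusted p = 0.00438 and 0.0186), with r at 0.39 without the 2 farthest. Insig2 had r of 0.56 and rho of 0.47 in spleen (permutation p = 0.012 and 0.0363, adjusted p = 0.0181 and 0.0653). Its r was 0.38 without the 2 farthest. In bone marrow the relation was closest with Insig1 (r = 0.79, rho = 0.67, permutation p = 0.00031 and 0.00127, adjusted p = 0.00093 and 0.00457), with r at 0.61 without the 2 farthest arrays, and Sqle again showed none that was detectable (r = 0.22, rho = 0.20, permutation p = 0.351 and 0.386, adjusted p = 0.366 and 0.464). Idi1 in marrow had r of 0.71 and rho of 0.50 (permutation p = 0.00102 and 0.0266, adjusted p = 0.00229 and 0.0533). Dhcr7 in marrow had r of 0.62 and rho of 0.45 (permutation p = 0.00389 and 0.048, adjusted p = 0.007 and 0.0719). Without the 2 farthest arrays r was 0.34 for Idi1 and 0.53 for Dhcr7. Insig2 and Srebf2 in marrow had r of 0.29 and 0.44 (permutation p = 0.222 and 0.0523, adjusted p = 0.266 and 0.0725). Whether a relation differs between tissues was not tested.

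Other genes most like each of the 7 were sought over all arrays of the tissue where its baclofen difference was widest, by Pearson's r, as a description. In the 19 livers Msmo1, a sterol demethylase gene of the pathway, led for Hmgcs1 (r = 0.90) and for Idi1 (r = 0.90). Eif2d and Yif1a followed for Hmgcs1 (r = 0.88 each), and Pnpla7 and the squalene synthase gene Fdft1 for Idi1 (r = 0.86 and 0.84). Insig2 in liver was most like Clpx, Lgalsl and Nedd4l (r = 0.91, 0.91 and 0.90), none of them a gene of the cholesterol list. In the 20 spleens Sqle was most like Fdft1 (r = 0.85), Erg28 and Psmb1 (r = 0.82 each), Dhcr7 like Oxct1, Hibadh and Rab11fip3 (r = 0.81 each), and Srebf2 like Wdfy4, Sh3pxd2a and Hip1r (r = 0.86, 0.85 and 0.85). Insig1 in the 20 marrows was most like Ewsr1, Hp1bp3 and Krt83 (r = 0.80, 0.78 and 0.78).

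Of 41 other genes of cholesterol synthesis, SREBP control, uptake, storage and efflux, 32 have a value here. In liver at 1 day 1 of 32 was called, where 2.67% of all genes were. It was Erlin1, whose protein takes part in holding SREBPs in the endoplasmic reticulum. It read 858, 1016, 944 and 963 in baclofen livers, against 1278, 1280 and 1127 in vehicle livers, and fell by 0.38 on the log2 scale (log2 difference -0.38 ± 0.09, adjusted p = 0.0352) with no overlap. The call was lost without 5 of the 19 livers in turn (adjusted p up to 0.167), and with the labels of the source field the difference was 0.04. In liver at 5 days 3 of 32 were called, all lower with baclofen, where 10.6% of all genes were called: 0 of 6 early enzymes, 0 of 8 late enzymes, 0 of 6 genes of SREBP processing, 1 of 7 of uptake and transport and 2 of 5 of storage and efflux. The lipoprotein receptor gene Lrp1 had a log2 difference of -0.37 ± 0.07 (adjusted p = 0.00205), at 2033 to 2535 in the 8 baclofen livers, against 3284, 2756, 3176 and 2766 in vehicle livers. Nr1h3, which encodes the sterol sensor LXR alpha, had -0.23 ± 0.05 (adjusted p = 0.00816), and the cholesterol exporter gene Abca1 -0.29 ± 0.08 (adjusted p = 0.0293). Neither Lrp1 nor Nr1h3 overlapped between the groups, whereas Abca1 did. The Abca1 call was lost without 4 of the 19 livers in turn (adjusted p up to 0.133, with -0.20 without vehicle 5 day replicate 2) and under 5 other settings, among them the mean of its probe sets (-0.15, adjusted p = 0.375). At 5 days macrophage markers averaged 7.39 to 7.85 in baclofen livers, against 7.59 to 8.12 in vehicle livers. Mature neutrophil markers averaged 4.84 to 5.59, against 5.17 to 5.82. Hepatocyte markers were higher in baclofen livers at both times, and the part of cell types in the liver differences was not tested.

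In bone marrow 1 of 31 genes tested was called at 1 day, against 7.36% of all genes. It was Abca1, which rose by 0.46 ± 0.13 (adjusted p = 0.0438). It read 1303, 1521, 1111 and 1189 in baclofen marrow, against 709, 1070, 968 and 996 in vehicle marrow, with no overlap. This call was lost without 9 of the 20 marrow arrays in turn (0.33, adjusted p = 0.127 without vehicle 1 day replicate 1) and under 5 other settings. At 5 days 2 of 31 were called, both late enzymes, against 10.1% of all genes. Msmo1 ranged from 167 to 224 in the 8 baclofen marrows, against 373, 217, 240 and 226 in vehicle marrow (log2 difference -0.44 ± 0.13, adjusted p = 0.0337). Ebp, the sterol isomerase gene, had a difference of -0.21 ± 0.07 (adjusted p = 0.045). Msmo1 lost its call without 7 of the 20 arrays in turn and Ebp without 14, in both cases also without vehicle replicate 1 (adjusted p = 0.167 for Msmo1 and 0.164 for Ebp).

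In spleen at 1 day 4 of 31 were called, against 15.5% of all genes. Abca1 rose by 0.51 ± 0.12 (adjusted p = 0.00806), at 2835, 2526, 2308 and 2803 in baclofen spleens, against 1525, 1760, 2141 and 1964 in vehicle spleens. Fdps, the farnesyl diphosphate synthase gene that acts just after Idi1, read 152, 178, 195 and 144, against 248, 234, 211 and 278 (log2 difference -0.54 ± 0.17, adjusted p = 0.0385). The HDL receptor gene Scarb1 had -0.34 ± 0.09 (adjusted p = 0.0153) and the sterol carrier gene Stard4 -0.26 ± 0.07 (adjusted p = 0.0205). None of the 4 overlapped between the groups, as was so for 17.2% of all genes. The 4 were picked by their call in these same arrays, so the lack of overlap is not separate evidence. Leaving out each of the 20 arrays in turn ended the call of Fdps in 6 cases, of Stard4 in 4, of Scarb1 in 1 and of Abca1 in 0. Mature neutrophil markers (9 of 10 with a probe set) averaged 9.21 to 9.52 in these baclofen spleens, against 9.40 to 11.09 in the vehicle spleens, and their part in the differences was not tested.

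In spleen at 5 days limma called 0 of 31, against 4.43% of all genes, and 5 of 31 had an unadjusted p under 0.05, against 25.9%. All 6 early enzyme genes had negative differences, from -0.29 to -0.02, as had 5539 of all 10916 genes tested. Negative too were 6 of 8 late enzymes, 2 of 6 genes of SREBP processing, 2 of 7 of uptake and transport and 2 of 4 of storage and efflux. The vehicle spleens compared include replicate 1, the highest of its group for 7 of the 7 genes followed here. The widest differences were Ebp at -0.31 ± 0.12 (adjusted p = 0.13) and Fdft1 at -0.29 ± 0.13 (adjusted p = 0.168). Hepatocyte markers averaged 4.98 to 9.45 in the 8 baclofen spleens and 5.25 to 9.73 in the 4 vehicle spleens of that time, and adipocyte markers (4 of 6 with a probe set) reached 6.98 in baclofen spleens, against 4.81 in vehicle spleens. Over the 6 comparisons the median of the 32 or 31 genes lay between -0.05 and 0.03, beside -0.03 to 0.00 over all genes tested.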

How the data were processed

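RNA of liver, bone marrow and spleen was measured on Affymetrix mouse arrays. The deposited values are intensity on a linear scale, from 5.25 to 43115. The submitters' processing notes name RMA and limma without saying what each did. Log2 values were taken here from the deposited intensity, with no further normalization. Arrays give no counts, and precision is limited by how many there are.

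Probe sets with exactly 1 symbol (34945 of 45101) stand for 18193 genes, and in each tissue a gene was represented by its probe set of highest mean. Genes at or above the 40th percentile were tested, 10916 per tissue. Each tissue's 4 groups were fitted together in limma 3.58.1 (R 4.3.3), with p adjusted by Benjamini-Hochberg over all genes tested. Differences between tissues came from 1 fit of all 12 groups. The code was tested on simulated data. Genes named beside the 7 are the called genes of the list (or the 2 widest differences where none was called) and, for each of the 7, the 3 most alike. The 7 genes, lists and tests were chosen with earlier results of these data known. Settings varied were the brightness filter, probe set choice, normalization, moderation, weights, a 3'/5' RNA quality covariate, the arrays fitted, labels, doubtful libraries, a replicate block and each array left out.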

Additional observations from a re-analysis of the deposited data

Results flagged for a closer look

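In 12 of 77 groups of 4 to 8 arrays looked at, the highest or lowest array stood apart from the rest of its group by Dixon's 95% criterion, which chance meets in about 1 group in 20. Values are deposited intensity. In liver, Hmgcs1 was low in vehicle 5 day replicate 4 (3957, others 6605 to 6912). Baclofen 5 day replicate 8 was low in liver for Sqle (459, others 1188 to 1712) and Idi1 (1126, others 3512 to 4911), and in spleen the array of the same number was low for Sqle (141, others 196 to 259).

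In bone marrow, vehicle 5 day replicate 1 was high for Hmgcs1 (1083, others 732 to 757) and Insig1 (241, others 139 to 147), and the spleen array of that group and number was high for Sqle (394, others 221 to 229). That spleen array is among the libraries that held transcripts of another tissue. Hmgcs1 was also high in bone marrow baclofen 5 day replicate 4 (765, others 638 to 669), and Srebf2 in bone marrow vehicle 1 day replicate 1 (631, others 531 to 545). In spleen Sqle was low in vehicle 1 day replicate 3 (176, others 262 to 278), Insig2 was low in vehicle 1 day replicate 1 (229, others 248 to 251), and Insig2 was high in baclofen 5 day replicate 2 (271, others 246 to 256).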

How the results depend on the processing

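Of the counts of the 7 genes called, those in liver, those in spleen at 5 days, the changes between days and the other differences between tissues were 0 under every setting run. The counts that moved were these. Array weights called 3 in bone marrow at 1 day, 3 in bone marrow at 5 days, 3 in spleen at 1 day and 1 for liver minus spleen at 1 day, where the counts reported are 0, 1, 0 and 0. A fit of only the groups compared called 1 in bone marrow at 1 day (Idi1). The Hmgcs1 call in bone marrow at 5 days was lost, leaving 0, with the 3'/5' covariate (adjusted p = 0.0545), the mean of probe sets (0.0529), no brightness filter (0.0621), only the groups compared (0.0629) and the replicate block (0.251). Leaving out 1 array gave 0 to 3 calls in bone marrow at 1 day, 0 to 1 in bone marrow at 5 days and 0 to 1 in spleen at 1 day. The cause was not tested.

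Of the other cholesterol genes, in liver at 1 day (1 called) the count was 2 with array weights, a filter at the 60th percentile, quantile normalization and averaged probe sets, and 0 with the source field, median centring, only the groups compared and the replicate block. In bone marrow at 1 day (1 called) it was 0 with the covariate, mean of probe sets, no filter, only the groups compared and the block, 2 without libraries holding another tissue's transcripts, and 8 with array weights. In bone marrow at 5 days (2 called) it was 1 with the covariate, all probe sets apart, mean of probe sets, no filter and only the groups compared, 0 with the block and 14 with array weights. In spleen at 1 day (4 called) it was 2 with only the groups compared, 7 with quantile normalization and 11 with array weights, and at 5 days (0 called) 1 with quantile normalization. Leaving out 1 array gave 0 to 2 and 2 to 5 calls in liver at 1 and 5 days, 0 to 4 and 0 to 5 in bone marrow, and 1 to 6 and 0 to 1 in spleen.

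Differences turned sign by more than 1 SE with the source field in liver at 1 day for Dhcr7 (-0.29), Insig1 (-0.12), Insig2 (-0.05) and Erlin1 (0.04), without libraries holding another tissue's transcripts in spleen at 5 days for Hmgcs1 (0.22) and Insig2 (0.04), and with array weights for Idi1 in bone marrow at 5 days (0.03). Leaving out vehicle 5 day replicate 1 turned 4 values at 5 days by more than 1 SE, and Dhcr7 in liver (0.05) and Sqle in bone marrow (0.02) by less. Over all arrays left out in turn the 4 ranged from -0.18 to 0.07 for Idi1 and -0.10 to 0.06 for Dhcr7 in bone marrow, and from -0.23 to 0.09 for Hmgcs1 and -0.08 to 0.01 for Insig2 in spleen. In all, 17 values under other settings and 21 with an array left out turned sign by less than 1 SE, Dhcr7 in liver and Sqle in bone marrow above included. The labels do not say whether replicate numbers pair the arrays. Deviations of 23 same-numbered baclofen and vehicle pairs correlated at -0.46 to 0.27, with 5 over 0.1. Arrays of different numbers were not compared in this way, so these values cannot tell whether the numbers mark pairs. The brightness filter limits what can be said of dim probe sets.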

Other observations

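Arrays of the same treatment, day and replicate number were also compared between tissues, a choice made after the values were seen. The labels do not say that a number marks 1 mouse. Of 21 relations of group-centred log2 values, the closest was Sqle in liver and bone marrow over 19 number pairs (r = 0.76, rho = 0.57, permutation p = 0.00097 and 0.0119, adjusted p = 0.0204 and 0.083), which fell to r = 0.23 without the 2 farthest arrays and so rested on them. Insig1 in liver and bone marrow had r of 0.64 and rho of 0.58 (permutation p = 0.00549 and 0.0106, adjusted p = 0.0288 and 0.083), and r of 0.73 without the 2 farthest. Between bone marrow and spleen, over 20 pairs, Sqle had r of 0.65 and rho of 0.56 (permutation p = 0.00209 and 0.0114, adjusted p = 0.0219 and 0.083), and r of 0.45 without the 2 farthest. Idi1 had r of 0.63 and rho of 0.53 there (permutation p = 0.0037 and 0.0195, adjusted p = 0.0259 and 0.102), and r of 0.37 without them. By rho none of the 21 had an adjusted p under 0.05.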
